A study of Rattus norvegicus with 24 samples.

Results

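The genes described here handle iron: Tfrc, Slc11a2, Slc11a1, Fth1, Ftl1, Slc40a1, Hp, Hmox1, Ireb2 and Aco1, 10 genes of 25885 gene names on the array. They were taken by name, as every probe carrying one of these symbols, which gave 15 of 30367 probes. The RNA came from whole blood of male Sprague Dawley rats, 8 weeks old at the start and fed for 6 weeks, and each of 6 groups had 4 arrays. C-G0 rats ate a control semi-synthetic diet and received saline into the tail vein. LPS-G0 rats ate the same diet and were injected by the same route with lipopolysaccharide (LPS) of E. coli at a dose of 10 mg/kg, a treatment used to induce enteritis. C-G1 and LPS-G1 rats ate the diet with oat beta-glucan of high molecular weight, and C-G2 and LPS-G2 rats ate it with oat beta-glucan of low molecular weight, under saline and LPS respectively. Every array set rat blood RNA against 1 common reference, so a log2 ratio of 0 is the level of that reference. The labels describe the reference as RNA of all rats in the experiment, while the methods describe a pool of some rats of each group that were left out of the hybridised samples. For 2 of the 4 LPS-G0 arrays (replicates 3 and 4) the label field for induction read control while the title named LPS, and the title was followed.

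Cells take up transferrin-bound iron through the transferrin receptor, carry it across membranes with divalent metal transporters, store it in ferritin and release it through ferroportin. Haptoglobin binds haemoglobin set free in plasma, and heme oxygenase breaks heme down to biliverdin, carbon monoxide and iron. Iron regulatory proteins bind iron-responsive elements in the mRNAs of several of these genes and so set their translation or stability. In blood the chief users of iron are maturing red cells, and in inflammation the liver peptide hepcidin lowers iron export while macrophages retain iron.

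The probes of 4 of the genes, Hp, Slc11a1, Hmox1 and Slc11a2, are given here as in the files, 5′ to 3′, with positions on the rat build rn4. Capitals mark the stop codon that ends the open frame of the Hp probe. The Slc11a1 probe covers 60 bases spread over chr9:73723371-73723827, a span of 457 bases, and the other probes lie in 1 uninterrupted stretch each.
Hp, chr19:39443156-39443215, minus strand: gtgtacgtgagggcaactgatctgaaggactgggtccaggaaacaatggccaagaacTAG
Slc11a1, plus strand: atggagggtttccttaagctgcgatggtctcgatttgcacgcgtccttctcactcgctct
Hmox1, chr19:13969336-13969395, plus strand: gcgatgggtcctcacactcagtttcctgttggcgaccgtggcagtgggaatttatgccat
Slc11a2, chr7:139099082-139099141, minus strand: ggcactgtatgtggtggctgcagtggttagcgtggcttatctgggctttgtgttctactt
Their GC content was 51.7% for Hp and Slc11a2, 53.3% for Slc11a1 and 55% for Hmox1.

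All values are log2 of Cy3 over Cy5, with rat RNA in Cy3 as the sample labels have it. The study's methods give the dyes the other way round. With rat RNA in Cy5 every log2 ratio and difference below would change sign, while correlations would keep theirs. Every count of arrays above background in Cy3 would then describe the reference. Among 7074 probes above background in both dyes on all arrays, the median SD within groups was 0.383 in Cy3 and 0.257 in Cy5. The number of probes detected above the Cy3 background ran from 7786 to 15385 on single arrays, and C-G0 held both the lowest count (replicate 3) and the highest (replicate 4). Defining genes of red cell precursors, neutrophils, monocytes, T, B and NK cells and platelets were above background, and none of 6 liver genes passed the filter for testing. In whole blood, fewer cells of a type and less RNA per cell cannot be told apart.

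Of the 10 genes, 9 were measured well enough to test. In Cy3, Fth1, Ftl1 and Slc40a1 were above background on 24 of 24 arrays, Hp on 23, Tfrc and Slc11a2 on 22, Hmox1 on 21, Slc11a1 on 20 and Aco1 on 18, and in Cy5 all 9 were above background on 24. Ireb2, which encodes iron regulatory protein 2, was above background in Cy3 on 0 of 24 arrays and in Cy5 on 1 (chr8:58476082-58476141) and has no fold in any comparison. C-G0 replicates 1 and 3 were not well above background in Cy3 for Aco1 and for Slc11a1.

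**Figure D1:**
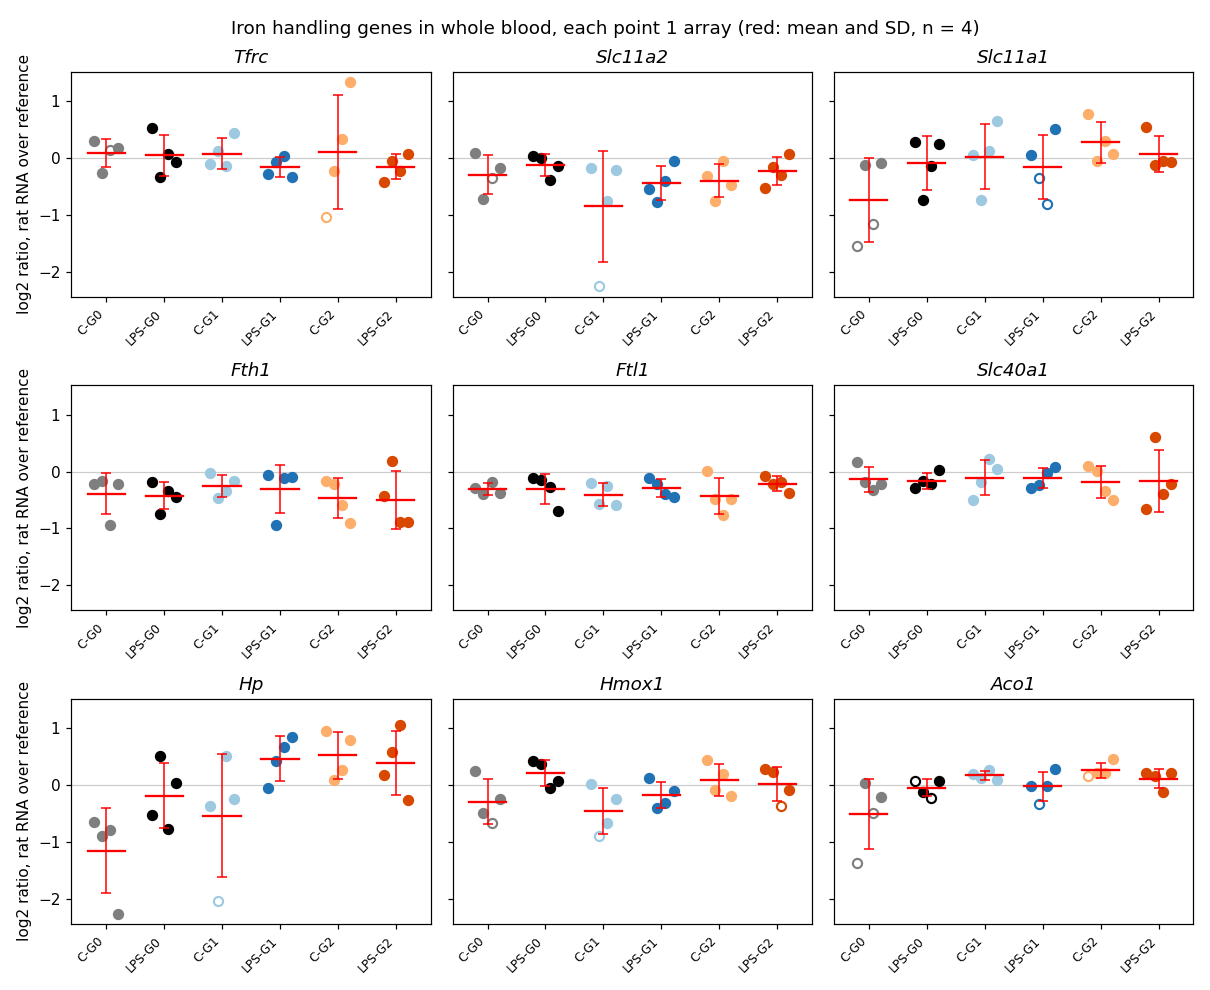
Log2 ratio of rat RNA over the common reference (vertical axis) for 9 iron handling genes in 6 groups (horizontal axis), each point 1 array, with open points not well above background and red lines for the group mean and SD (n = 4). Hp spreads widest, from -2.27 in C-G0 to 1.07 in LPS-G2, while Ftl1 stays between -0.76 and 0.01.

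Among the uptake genes, Tfrc encodes the transferrin receptor, and its probe lies at chr11:69976628-69976687. It averaged 0.09 ± 0.24 (SD, n = 4) in C-G0, 0.05 ± 0.36 in LPS-G0, 0.08 ± 0.27 in C-G1, -0.16 ± 0.17 in LPS-G1, 0.11 ± 1.00 in C-G2 and -0.16 ± 0.22 in LPS-G2. The spread of C-G2 came from arrays at -1.04, -0.22, 0.34 and 1.34, which cover the range of all 24 arrays. A second Tfrc probe, spread over 1655 bases (chr11:69978846-69980500), was above background in Cy3 on 0 of 24 arrays.

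Slc11a2 encodes the divalent metal transporter that moves iron out of endosomes in red cell precursors. C-G1 read -0.17, -2.26, -0.76 and -0.21, so 1 array lay far below the others. The other group means ran from -0.44 ± 0.31 in LPS-G1 to -0.12 ± 0.19 in LPS-G0, with C-G0 at -0.29 ± 0.34, C-G2 at -0.40 ± 0.29 and LPS-G2 at -0.23 ± 0.25. Ranges of all 6 groups overlapped. The 2 other Slc11a2 probes, at chr7:139090121-139090180 and chr7:139094505-139094564, were above background in Cy3 on 5 and 3 of 24 arrays, and in Cy5 on 24, and did not follow the first (r = 0.05 and -0.41 over 24 arrays). On the dim probes, mean Cy3 of C-G0 was 1.43-fold and 1.15-fold that of LPS-G0. No LPS-G0 array was well above background there, and 2 of 4 C-G0 arrays were. At chr7:139090121-139090180, C-G0 replicate 1 read -2.22, below every LPS-G0 array. The same folds were 1.35 and 1.07 for C-G0 over C-G2, and 1.63 and 1.13 for C-G1 over LPS-G1. In C-G1, 2 and 1 of 4 arrays were well above background on these probes. All folds compare mean Cy3 after scaling between arrays, against the higher of the dimmest detected signal and the probe's own. The brighter mean also counts arrays not well above background, so these folds are not strict lower bounds. Folds from the log2 ratio can be smaller. At chr7:139090121-139090180 that ratio averaged -0.04 in C-G0 and -0.37 in C-G2. These folds have no test.

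Slc11a1 encodes the metal transporter of phagosome membranes in macrophages and neutrophils. C-G0 read -1.56, -0.12, -1.17 and -0.09, C-G2 read 0.78, -0.05, 0.30 and 0.07, and C-G1 read 0.05, -0.74, 0.12 and 0.65. The lowest C-G2 array lay above the highest C-G0 array by a narrow margin, while C-G1 overlapped C-G0. With LPS the means were 0.07 ± 0.32 in LPS-G2, -0.09 ± 0.47 in LPS-G0 and -0.15 ± 0.56 in LPS-G1.

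The storage and export genes varied little between groups. Fth1, the ferritin heavy chain (chr1:212432648-212432709), had group means from -0.50 in LPS-G2 to -0.25 in C-G1, a range of 0.25 against an SD within groups of 0.36. Ftl1, the ferritin light chain (chr1:95929246-95929305), ran from -0.43 in C-G2 to -0.21 in LPS-G2 against an SD of 0.21. Slc40a1, ferroportin (chr9:44977923-44977982), ran from -0.19 in C-G2 to -0.11 in C-G1 against an SD of 0.31. Over 8 comparisons of 2 groups, the 95% confidence intervals of the difference lay within -0.62 and 0.74 for Fth1, -0.46 and 0.56 for Ftl1 and -0.50 and 0.50 for Slc40a1, on the log2 scale. The second probes of Fth1 and Slc40a1, also above background on 24 arrays, correlated with the first (r = 0.96 and 0.89) but spread more between groups. The group means of the second Slc40a1 probe ran from -0.34 to -0.04, a range of 0.30 against 0.08 for the first, and its largest difference, 0.24 in LPS-G2 vs. C-G2, had a 95% interval of -0.25 to 0.72. For the second Fth1 probe the interval reached -0.80 in LPS-G2 vs. LPS-G0 and 0.80 in LPS-G1 vs. LPS-G2.

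For several genes the means of the 3 slides, each with all 6 groups on 8 arrays, differed more than the means of the groups. Ftl1 averaged -0.17 on slide 1, -0.32 on slide 2 and -0.49 on slide 3, a wider range than its 6 groups. Tfrc averaged -0.20, -0.01 and 0.22 in the same order, and Slc40a1 -0.23, -0.02 and -0.19. Fth1 averaged -0.25, -0.40 and -0.53, with an SD within slides of 0.23, 0.39 and 0.34. These slide means were not tested.

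Hp, haptoglobin, had the widest range of group means of the 9 genes. C-G0 read -0.65, -0.90, -0.80 and -2.27, and C-G2 read 0.95, 0.09, 0.26 and 0.79, so every C-G2 array lay above every C-G0 array. C-G1 read -0.36, -2.05, 0.51 and -0.25, LPS-G0 read -0.52, 0.51, -0.78 and 0.03, LPS-G1 read -0.06, 0.42, 0.67 and 0.84, and LPS-G2 read 0.18, 0.58, 1.07 and -0.26. From high to low the means stood as C-G2 (0.52), LPS-G1 (0.47), LPS-G2 (0.39), LPS-G0 (-0.19), C-G1 (-0.54) and C-G0 (-1.15). Neighbours in that order overlapped.

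Hmox1, heme oxygenase 1, read 0.25, -0.50, -0.66 and -0.25 in C-G0 and 0.43, 0.38, -0.05 and 0.08 in LPS-G0. The LPS-G0 arrays lay higher on average, but C-G0 replicate 1 lay inside their range. C-G1 had the lowest mean (-0.45 ± 0.41), and LPS-G1, C-G2 and LPS-G2 stood at -0.18 ± 0.23, 0.09 ± 0.29 and 0.02 ± 0.30.

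Aco1 encodes cytosolic aconitase, which acts as iron regulatory protein 1 when it lacks its iron-sulfur cluster (chr5:57591506-57591565). C-G0 read -1.37, 0.04, -0.50 and -0.21, C-G1 read 0.20, 0.12, 0.26 and 0.09, and C-G2 read 0.15, 0.21, 0.21 and 0.46. All C-G1 and C-G2 arrays lay above all C-G0 arrays. With LPS the means were 0.11 ± 0.16 in LPS-G2, -0.02 ± 0.25 in LPS-G1 and -0.05 ± 0.15 in LPS-G0.

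The response to LPS on the control diet was tested in LPS-G0 vs. C-G0. The largest differences belonged to Hp, 0.97 (SE 0.37) on the log2 scale, Slc11a1, 0.64 (SE 0.34), Hmox1, 0.50 (SE 0.21), and Aco1, 0.46 (SE 0.23), all with the higher mean in LPS-G0. None passed: limma called 0 of 9 genes at an adjusted p under 0.05, with Hp at 0.251 and Hmox1 at 0.276, against 0.00972% of all probes tested. At an unadjusted p under 0.05 it called 2 of 9, Hp and Hmox1, against 15.2% of all probes. The groups of 0 of 9 genes were free of overlap, against 5.04% of probes. The study's own kind of test, an analysis of variance followed by Tukey's test, also called 0 of 9, and 0 at an unadjusted p under 0.05. Here and below, its unadjusted p is the larger of the p of these 2 tests. It lacks only the adjustment over probes, since Tukey's test covers all pairs of groups. Its unadjusted threshold is therefore stricter than that of limma. The median difference of the 9 genes was 0.17, beside 0.03 for all 10293 probes. Without C-G0 replicate 1, limma called Hmox1 (difference 0.68, adjusted p = 0.0330), and weighting the arrays by their quality also called it (0.73, adjusted p = 0.0217); over all alternatives its adjusted p lay between 0.0217 and 0.873. The differences of Slc11a1 and Aco1 came to 0.01 and 0.04 without C-G0 replicates 1 and 3, the 2 C-G0 arrays with the fewest probes above background, a choice made after seeing the data. Without C-G0 replicate 4 the Hp difference came to 0.60 (adjusted p = 0.377), and without C-G0 replicate 1 that of Aco1 came to 0.17. Normexp background correction with an offset of 50 in both dyes, then loess, in place of the deposited ratio, gave 0.49 for Hp and 0.17 for Hmox1. Such an offset by itself makes the ratios of dim probes smaller. NK cell markers averaged 0.25 ± 0.24 in LPS-G0 and -0.36 ± 0.47 in C-G0, and neutrophil markers -0.46 ± 0.19 and 0.09 ± 0.15; their part in these differences was not tested.

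On the diet of high molecular weight beta-glucan without LPS, C-G1 vs. C-G0, Slc11a1 differed by 0.75 (SE 0.34), Aco1 by 0.68 (SE 0.21) and Hp by 0.61 (SE 0.43), with C-G1 higher, and Slc11a2 differed by -0.56 (SE 0.31), with C-G1 lower. The test called 0 of 9 (limma, smallest adjusted p = 0.106, for Aco1), against 0.0281% of 10676 probes. At an unadjusted p under 0.05 it called Slc11a1 and Aco1, 2 of 9, against 28% of all probes, and Tukey's test called 1 of 9 unadjusted and 0 adjusted. Aco1 was the 1 gene whose groups did not overlap (7.06% of all probes), and its exact permutation test, two-sided, gave p = 0.0286, the smallest that 4 against 4 arrays allow. Any gene without overlap gets that value. Without C-G0 replicate 4 Aco1 was called (difference 0.78, adjusted p = 0.0366), and without C-G0 replicates 1 and 3 its difference came to 0.25 (adjusted p = 0.928), without C-G0 replicate 1 alone to 0.39, and after normexp and loess to 0.18. Without C-G1 replicate 2 the Slc11a2 difference came to -0.09, and without C-G0 replicate 4 the Hp difference came to 0.24.

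On the diet of low molecular weight beta-glucan without LPS, C-G2 vs. C-G0, Hp differed by 1.68 (SE 0.43, 95% interval 0.78 to 2.57), Slc11a1 by 1.01 (SE 0.34, 0.30 to 1.72) and Aco1 by 0.77 (SE 0.21, 0.34 to 1.20), each with C-G2 higher. Each of these genes had its largest difference over the 8 comparisons of 2 groups here, and the groups of each did not overlap (3 of 9 genes, against 2.63% of all probes). The exact permutation p of 0.0286 for each follows from the lack of overlap and adds nothing to it. After adjustment over all probes limma called 0 of 9, with Hp at 0.167, Aco1 at 0.173 and Slc11a1 at 0.247, against 0.0281% of probes. Unadjusted, the same genes were called, 3 of 9 against 13.3%, and Tukey's test called 2 of 9 unadjusted and 0 adjusted. Within slides 1, 2 and 3, with 1 or 2 arrays a group, Hp differed by 1.72, 0.89 and 2.79, Slc11a1 by 1.62, 1.12 and 0.27, and Aco1 by 0.82, 0.71 and 0.54. Aco1 was called without C-G0 replicate 4 (difference 0.87, adjusted p = 0.0352), and without C-G0 replicates 1 and 3 Slc11a1 and Aco1 differed by 0.38 and 0.34, while Hp differed by 2.10. That choice leaves in C-G0 replicate 4, where Hp read -2.27 and the other C-G0 arrays lay between -0.90 and -0.65. Without replicate 4 the Hp difference was smaller. Over all alternatives it lay between 0.96 and 2.10. Without C-G0 replicate 1 alone Aco1 differed by 0.48, and after normexp and loess Hp, Slc11a1 and Aco1 differed by 0.96, 0.37 and 0.25. The comparisons with LPS-G0, C-G1 and C-G2 share the 4 C-G0 arrays.

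**Figure D2:**
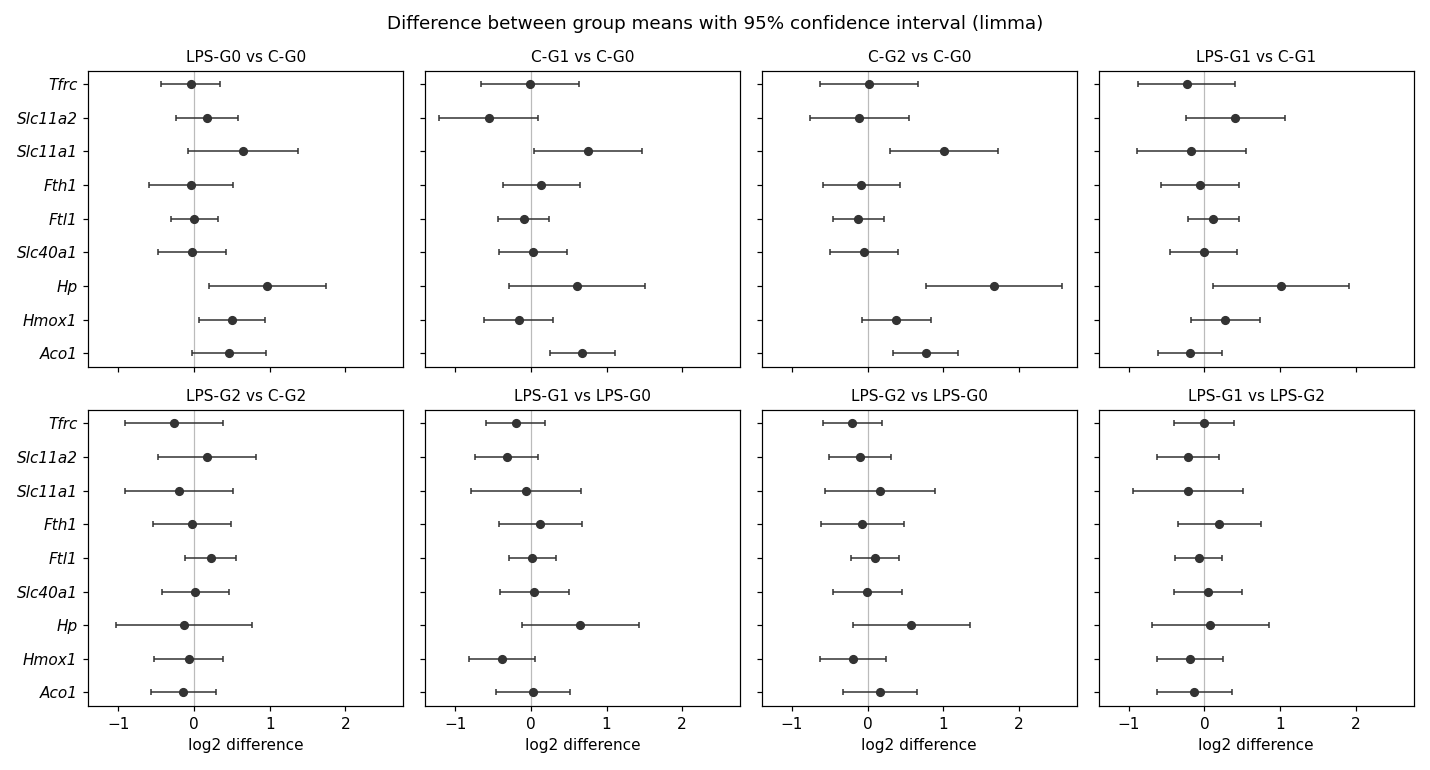
Log2 difference between group means (horizontal axis) with its 95% confidence interval from limma for 9 iron handling genes (vertical axis) in 8 comparisons. The Hp, Slc11a1 and Aco1 intervals in C-G2 vs. C-G0 lie above 0, at 0.78 to 2.57, 0.30 to 1.72 and 0.34 to 1.20, and those of Slc40a1 lie within -0.50 and 0.50 in all 8 panels.

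The effect of the beta-glucans in LPS-treated rats was compared with LPS-G0. In LPS-G1 vs. LPS-G0, Hp differed by 0.65 (SE 0.37), Hmox1 by -0.38 (SE 0.21) and Slc11a2 by -0.32 (SE 0.20). limma called 0 of 9 at an adjusted p under 0.05 (smallest 0.242, Hmox1), against 9.01% of all probes, and 0 of 9 unadjusted, against 27%. No gene's groups were free of overlap, against 21.9% of probes. Hmox1 was called with array weights (-0.50, adjusted p = 0.0280), and its adjusted p over all alternatives lay between 0.0280 and 0.650. In LPS-G2 vs. LPS-G0, Hp differed by 0.58 (SE 0.37), and 0 of 9 genes were called by limma adjusted (0% of probes) or unadjusted (8.25%). In LPS-G1 vs. LPS-G2, no difference reached 0.25 in size, and 0 of 9 were called adjusted (0% of probes) or unadjusted (6.67%). Tukey's test called 0 of 9 in each of these, adjusted or unadjusted.

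Under each beta-glucan diet, LPS was compared with saline. In LPS-G1 vs. C-G1, Hp differed by 1.01 (SE 0.43, adjusted p = 0.950), the 1 gene of 9 called unadjusted (2.81% of probes), and 0 of 9 were called adjusted (0.00937%). Without C-G1 replicate 2, at -2.05 and not well above background in Cy3 for Hp, the difference came to 0.50. In LPS-G2 vs. C-G2, the 9 differences lay between -0.26, for Tfrc, and 0.22, for Ftl1, and limma called 0 of 9 adjusted (0% of probes) or unadjusted (1.09%). Tukey's test called 0 of 9 in both, adjusted or unadjusted.

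Whether LPS acted differently by diet was tested as an interaction. On G1 against G0, Aco1 had the lowest p, with a difference of -0.65 between the LPS responses (SE 0.29, unadjusted p = 0.0366), 1 of 9 genes against 3.01% of probes, and 0 of 9 were called by limma after adjustment (0% of probes; adjusted p = 0.999). On G2 against G0, Hp differed by -1.10 (SE 0.61), Slc11a1 by -0.85 (SE 0.49), Aco1 by -0.61 (SE 0.29) and Hmox1 by -0.57 (SE 0.31). Here limma called 0 of 9 adjusted (0% of probes; smallest adjusted p = 0.833) and 0 of 9 unadjusted (5.57%).

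Across the 24 arrays Slc11a2 and Hmox1 moved with the reticulocyte and erythroid markers, 15 genes of 18 listed that passed the filter. Over arrays of one experiment, which share a reference, r between the mean of these markers and Slc11a2 was 0.87 (Spearman 0.67), and 0.63 without C-G1 replicate 2 and LPS-G1 replicate 2. For Hmox1 it was 0.72 (Spearman 0.70), and 0.61 without the same arrays. Within slides 1, 2 and 3, with 8 arrays each, it was 0.69, 0.95 and 0.68 for Slc11a2 and 0.71, 0.72 and 0.31 for Hmox1. Both genes also correlated with Actc1, the 1 heart muscle marker of 6 that was tested (r = 0.63 for Slc11a2 and 0.66 for Hmox1), and with the 8 platelet markers (0.66 and 0.49). Of the other heart markers, Tnnt2 was above background in Cy3 on 14 of 24 arrays, Myl2 on 3, Myh6 and Myl7 on 1 each and Tnni3 on 0. The platelet value of Slc11a2 was 0.07 without C-G1 replicate 2 and C-G0 replicate 1. The mean of the erythroid markers was lowest in C-G1 (-0.66 ± 0.63) and highest in LPS-G0 (0.19 ± 0.07), as for Slc11a2 and Hmox1 themselves, and lay between -1.56 and 0.54 over all arrays. The part of red cell precursors, platelets or heart tissue (the blood was drawn from the heart) in the Slc11a2 and Hmox1 values was not tested.

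Aco1 and Slc11a1 moved together (r = 0.73, Spearman 0.64), with r = 0.43 without C-G0 replicates 1 and 3. With the 6 monocyte markers r was 0.64 for Aco1 and 0.47 for Slc11a1 (Spearman 0.39 and 0.20), and with the 6 NK cell markers 0.65 and 0.45 (Spearman 0.33 and 0.35). Without C-G0 replicate 1 and LPS-G0 replicate 1, the monocyte values were 0.27 for Aco1 and 0.26 for Slc11a1, and within slide 3 they were -0.07 and -0.27. Without C-G0 replicate 1 and C-G1 replicate 4, the NK cell values were 0.36 and 0.35. C-G0 replicate 1 held the lowest monocyte mean, -0.69. Their part in the C-G0 comparisons of Aco1 and Slc11a1 was not tested.

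Hp followed no cell list beyond r = 0.33, with r = 0.24 for the 6 neutrophil markers. Neutrophil markers averaged 0.09 ± 0.15 in C-G0 and 0.16 ± 0.61 in C-G2, where Hp stood at -1.15 and 0.52. Slc40a1 had r = -0.61 with the 4 B cell markers, and -0.55 without the 2 arrays farthest from their median. Between genes, Hmox1 and Slc11a2 reached r = 0.65, Slc40a1 and Fth1 0.50, and Tfrc and Ftl1 -0.45, while the ferritin chains Fth1 and Ftl1 had r = 0.07.

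**Figure D3:**
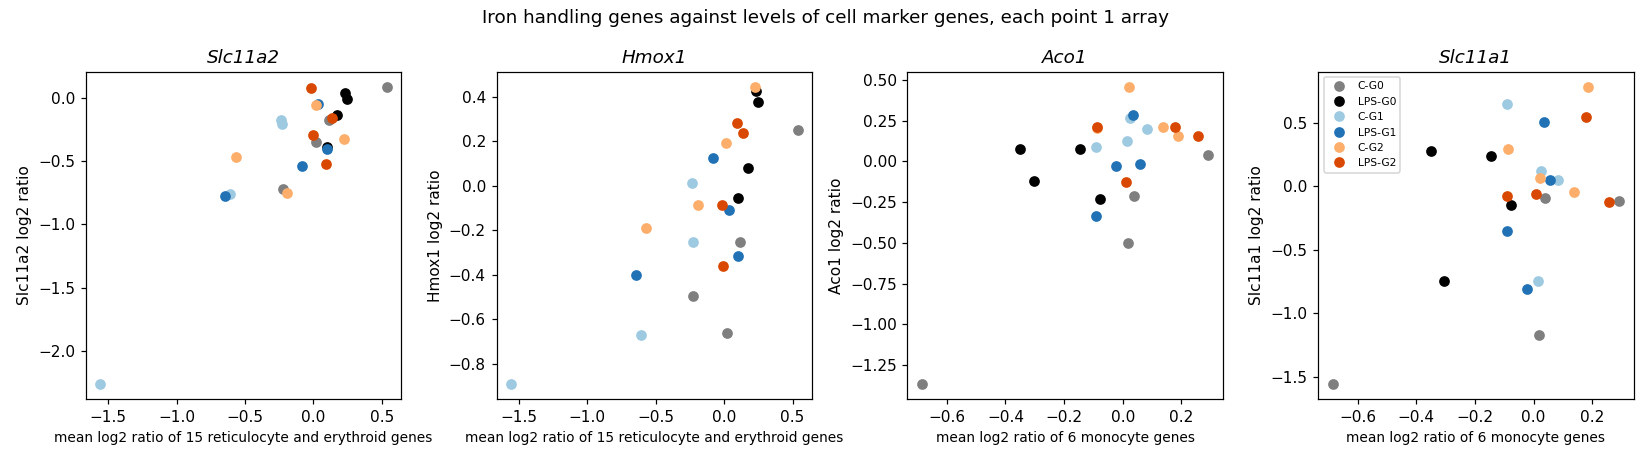
Log2 ratio of Slc11a2, Hmox1, Aco1 and Slc11a1 (vertical axes) against the mean log2 ratio of erythroid or monocyte marker genes (horizontal axes), each point 1 of 24 arrays, coloured by group. C-G1 replicate 2 lies lowest for Slc11a2, at -2.26, and for the erythroid markers, at -1.56, and C-G0 replicate 1 lies lowest for Aco1, at -1.37, and the monocyte markers, at -0.69.

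**Figure D4:**
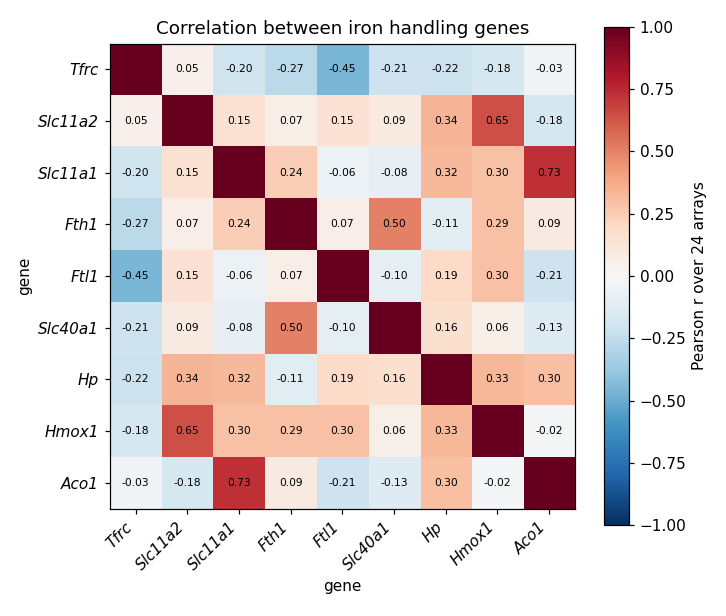
Pearson r over 24 arrays between each pair of 9 iron handling genes (both axes), on a colour scale from -1 to 1. The highest values are 0.73 for Aco1 with Slc11a1 and 0.65 for Hmox1 with Slc11a2, and the lowest is -0.45 for Tfrc with Ftl1.

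The genes most alike to each member, by r over 24 arrays among all probes tested with a gene name, were Myo5c (0.92) and Dlgap5 (0.91) for Slc11a2, Rras (0.92) and Bri3 (0.89) for Aco1, Ces1f (0.88) and Adam24 (0.88) for Hmox1, and Clic1 (0.83) and Trex1 (0.80) for Slc11a1. For Fth1 they were Mfsd6 (0.79) and Sav1 (0.69), for Slc40a1 Smim3 (0.78) and Myct1 (0.78), and for Ftl1 Hba1 (0.76), an alpha chain of haemoglobin, and Tex19.2 (0.68). Hp was followed by Zyx (0.70) and Cd300a (0.64), and Tfrc by Ankrd13a (0.67) and Timm21 (0.67). Each pair holds the highest of the r values over all probes tested, so these are extremes by choice.

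Other genes of iron metabolism were read in 5 lists, of which 10 of 21 uptake, storage and export genes, 7 of 17 sensing and hepcidin genes, 6 of 13 heme and haemoglobin genes, 17 of 21 mitochondrial iron and iron-sulfur genes and 6 of 8 mRNAs with an iron-responsive element were tested. In LPS-G1 vs. LPS-G0, 1 gene of the 5 lists passed limma's adjusted threshold, Hamp, which encodes hepcidin, and in the other 9 comparisons 0 passed. In that comparison 9.01% of all probes were called. Hamp read 0.10, 0.31, 0.09 and 0.37 in LPS-G0 and -0.09, -0.70, -0.31 and -0.47 in LPS-G1, a fall by 0.61 (SE 0.18, adjusted p = 0.0458), with no overlap, as for 21.9% of all probes. Of these arrays 3 in each group were above background for Hamp, and it was above background on 17 of 24 in all. The call was lost in 7 of the 8 fits that left out 1 of these arrays and held in 7 of 21 alternatives in all, with adjusted p from 0.00607 to 0.306. In the erythroid list, 3 of 15 genes were called in the same comparison, all lower in LPS-G1, as were 1 of 6 NK cell genes and 1 of 1 heart muscle gene tested (Actc1, -0.56, adjusted p = 0.0306). Their part in the Hamp value was not tested.

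In C-G1 vs. C-G0, 9 of 17 mitochondrial genes were called at an unadjusted p under 0.05, against 28% of all probes, 4 higher and 5 lower in C-G1, with a median difference of -0.21 beside 0.02 for all probes. Abcb10, Slc25a37 and Glrx5, which serve heme and iron-sulfur cluster synthesis in red cell precursors, differed by -0.98, -1.07 and -0.82, and Fdx1, a ferredoxin, by 0.63, all with adjusted p = 0.103 or 0.104. Of 15 erythroid markers, 0 were called adjusted and 9, all lower in C-G1, unadjusted, beside the same 28% of probes, with a median difference of -0.87; their part in these values was not tested. In the list of sensing and hepcidin genes, 4 of 7 were called unadjusted, 2 higher and 2 lower in C-G1, with a median difference of 0.15. Furin, a protease that cleaves the hepcidin precursor, differed by -1.02 (adjusted p = 0.0533) and Hamp by -0.48, while Cul1, a ubiquitin ligase scaffold, differed by 0.65 and Nfe2l2, a transcription factor of the oxidative stress response, by 0.31 (adjusted p from 0.130 to 0.176 for these 3).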

How the data were processed

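Whole blood RNA of rats was measured on 24 Agilent 2-colour rat arrays on 3 slides. Per the file headers, the authors extracted spots with Feature Extraction 10.10.1.1 (10.7.3.1 in the labels) and deposited, per spot, background-subtracted, dye-normalized intensity in each dye and LogRatio, the log10 of Cy5 over Cy3. The deposited log10 table equalled the arrays' own LogRatio in 1511424 of 1511424 values and added nothing. Minus LogRatio was converted to log2, control and outlier spots (679 to 1133 per array) were left out, and spots of a probe were averaged. To be tested, a probe had to exceed the Cy3 background throughout some group (4 of 4 arrays). limma 3.58.1 (R 4.3.3) fitted 16 arrays (C-G0 with the 3 LPS groups; 10293 probes) or all 24 (10676 probes), without 20 and 32 probes that lacked an array value, and Benjamini-Hochberg adjusted p over all of them; called means an adjusted p under 0.05. Single genes also had the exact permutation test over 70 arrangements, two-sided. The probe above background on the most arrays stood for a gene, ties going to the brighter. From other iron lists, up to 3 called genes per comparison were named, and the 2 genes most alike by r; genes with an unadjusted p only (Furin, Cul1, Nfe2l2, Abcb10, Slc25a37, Glrx5, Fdx1) were chosen after their values were seen. Members and lists were chosen with earlier results of these data known. The number of arrays limits precision, and by the methods an array of C-G0 or an LPS group holds a single rat, and the labels call all replicates biological. The scripts were tested on simulated data.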

Additional observations from a re-analysis of the deposited data

Results flagged for a closer look

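Among 54 sets of 4 arrays (9 genes in 6 groups), 5 held 1 array that stood apart by Dixon's test at the 95% level, where chance gives about 1 in 20. Hp in C-G0 replicate 4 read -2.27, with the others between -0.90 and -0.65. Fth1 read -0.94 in C-G0 replicate 3, with the others between -0.23 and -0.16, and -0.95 in LPS-G1 replicate 2, with the others between -0.12 and -0.07. Slc11a1 read 0.55 in LPS-G2 replicate 1, with the others between -0.12 and -0.06. Aco1 read -0.13 in LPS-G2 replicate 3, with the others between 0.16 and 0.21. Of 18 interaction tests of the 9 genes, limma called 0 after adjustment, and 1, Aco1 on G1 against G0, at an unadjusted p under 0.05.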

How the results depend on the processing

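The count of iron handling genes called, 0 of 9 in each of 10 comparisons, was recomputed 229 times and was 0 in 224. It was 1 with array weights in LPS-G0 vs. C-G0 and 1 in LPS-G1 vs. LPS-G0 (Hmox1 in both). Leaving out each array in turn gave 0 to 1 in LPS-G0 vs. C-G0 (Hmox1, without C-G0 replicate 1), 0 to 1 in C-G1 vs. C-G0 and 0 to 1 in C-G2 vs. C-G0 (Aco1, without C-G0 replicate 4 in both), and 0 elsewhere. With the slide as a block, or with the replicate number as a block, the count stayed 0 in all 10. With the replicate number as a block, probes called in all went from 3 to 636 in C-G1 vs. C-G0 and from 927 to 1268 in LPS-G1 vs. LPS-G0. Same-numbered arrays had deviations with a lowest correlation under 0.1 in every comparison of 2 groups. Their mean correlation ran from -0.046 in LPS-G1 vs. LPS-G0 to 0.329 in C-G2 vs. C-G0. Arrays with different numbers averaged 0.015 and -0.111 there, in the same order. Whether the numbers pair the samples was not tested beyond these correlations. Of 2061 recomputed differences, 2034 moved by no more than the SD within groups. Fits that leave out 1 of 4 arrays can hardly pass that limit, so this count is no measure of stability. Some large differences shrank, as given above for Slc11a1 and Aco1 in the comparisons with C-G0. Among 435 recomputed differences whose main fit gave a size over 0.5, 1 changed sign. That was Slc11a2 in C-G1 vs. C-G0 with array weights (0.08). Normexp with loess shrank differences, for Hp in C-G2 vs. C-G0 to 0.96. The offset of 50 added to both dyes there by itself makes the ratios of dim probes smaller. Its share in the smaller differences was not tested. Tukey's test gives no interaction. Leaving out C-G0 replicate 4 together with C-G1 replicate 2 was also tried and is not counted here, since those arrays had been picked by their Hp and Slc11a2 values; it called Slc11a1, Hp and Aco1 in C-G2 vs. C-G0. Signal over background limits Aco1 and Slc11a1 in Cy3 (18 and 20 arrays above it) but not in Cy5 (24 each), so this limit depends on which dye held the rat RNA.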
